A study of Mus musculus with 8 samples.

Results

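The last day of a 3-day osteoclast culture was examined by comparing the 2 arrays of day 3 with the 2 arrays of day 2, which are 4 of the 8 arrays of the series, across all 8663 named genes that passed a detection filter. The cells were primary bone marrow-derived macrophages of C57BL/6 mice aged 6 to 8 weeks. Marrow cells were kept for 16 h in medium with 10% serum and the macrophage growth factor M-CSF at 5 ng/ml, and the non-adherent cells were then grown for 3 days with 30 ng/ml of M-CSF. The adherent cells that resulted received M-CSF at 30 ng/ml together with RANKL, the osteoclast differentiation factor, at 50 ng/ml for 0, 1, 2 or 3 days, with 2 arrays for each day. By the labels, days 2 and 3 shared the strain, the M-CSF and the RANKL and differed in the time under both. The samples of days 0 and 3 are numbered in a separate run from those of days 1 and 2. Whether these runs were handled apart is not stated. Such a difference and the last day of culture cannot be told apart. None of the 8 arrays held cells given M-CSF without RANKL at days 1 to 3, so RANKL and time in culture cannot be told apart. The labels call the arrays of a day replicates 1 and 2 and do not say whether separate cultures or animals gave them. The p-values therefore rest on the spread between these samples alone, and that spread may be technical.

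Osteoclasts are the cells that dissolve bone. RANKL acts on macrophage precursors through its receptor RANK and the transcription factor NFATc1, and the precursors leave the cell cycle, fuse into cells with many nuclei and build a sealed, acid-filled space on the bone surface. Protons from a vacuolar ATPase, chloride from the channel ClC-7 and the protease cathepsin K then remove mineral and collagen.

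Gene levels are log2 intensities after background correction and quantile normalization. A change is the mean of day 3 minus the mean of day 2 on that scale (n = 2 arrays per day). Its standard error (±) is that of limma, from the spread within days over all 8 arrays, moderated across genes. It is not the spread of the arrays of days 2 and 3 alone. A gene was called when its Benjamini-Hochberg adjusted p from limma was under 0.05 over all 8663 genes. The replicate arrays correlated at r = 0.995 across genes at day 2 and at 0.994 at day 3, and arrays of different days among these 4 at 0.984 to 0.986 (genes are not independent replicates). From 43.9% to 44.2% of probes were detected on each of the 8 arrays.

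From day 2 to day 3, 917 genes were called higher (10.6%) and 978 lower (11.3%), or 21.9% in either direction. Of these, 122 rose at least 2-fold (1.41% of genes tested) and 35 fell at least 2-fold (0.404%). The median absolute change was 0.23 over all tested genes, against 0.35 from day 0 to day 1 and 0.37 from day 1 to day 2. A direct test of the last step against the step before it, with which it shares the day 2 arrays, called 695 genes higher (8.02%) and 826 lower (9.53%) in the last step. The higher genes were 48.4% of the calls, and 31.0% of them when the arrays were scaled to a common median in place of quantile normalization, with 581 higher and 1295 lower.

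**Figure D1:**
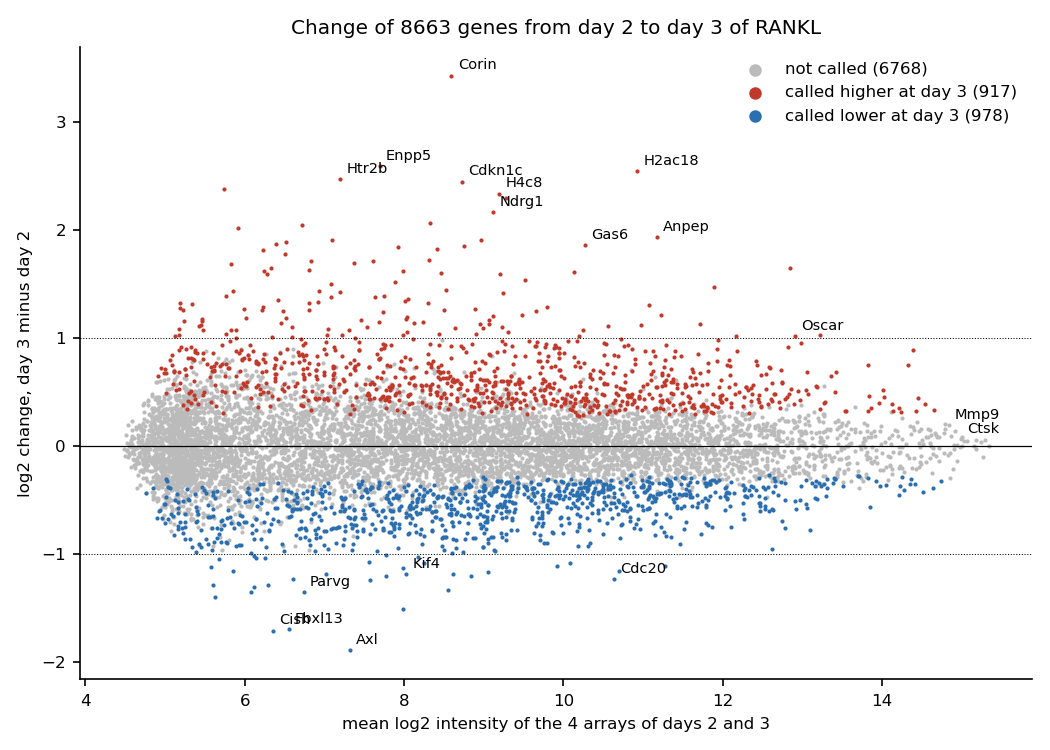
Each point is 1 of 8663 genes. The horizontal axis is the mean log2 intensity of the 4 arrays of days 2 and 3, the vertical axis the log2 change from day 2 to day 3, colour marks the limma calls (917 higher, 978 lower) and dotted lines mark 2-fold. Corin and H2ac18 lie far above the other points at their levels, Axl is the lowest point, and Ctsk and Mmp9 lie near 0 at the bright end.

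Most calls were lost when an array of day 2 or day 3 was left out, although their direction was kept. Without each of these arrays in turn, at least 1860 of the 1895 calls kept their sign and at most 1 turned. A kept sign is what arrays of 2 days that do not overlap would give. Fewer arrays also enter such a fit, and the part of this in the losses was not tested. Without replicate 1 of day 2 the fit called 284 genes higher and 239 lower, and 26.6% of the 1895 calls remained. The counts were 389 and 328 without replicate 2 of day 2, 511 and 560 without replicate 1 of day 3, and 350 and 382 without replicate 2 of day 3, and 35.8%, 49.8% and 36.1% of the calls remained. In all, 405 calls (21.4%) were made without each of these 4 arrays in turn, 218 higher (2.52% of genes tested) and 187 lower (2.16%), and 725 calls were lost in all 4 of these fits. Among the 157 calls of at least 2-fold, 109 (69.4%) were made in all 4 fits and 7 in none. Every called gene had both day 3 arrays on the same side of both day 2 arrays, which held for 63% of all tested genes, 30.5% with day 3 above and 32.5% with day 3 below. In what follows, counts given in array order are those without replicates 1 and 2 of day 2 and replicates 1 and 2 of day 3, in turn, and a gene named as rising or falling kept its call without each of these 4 arrays unless the paragraph names it as an exception. Counts over a list are calls with all arrays, to be read beside the 10.6% higher and 11.3% lower of all tested genes.

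**Figure D2:**
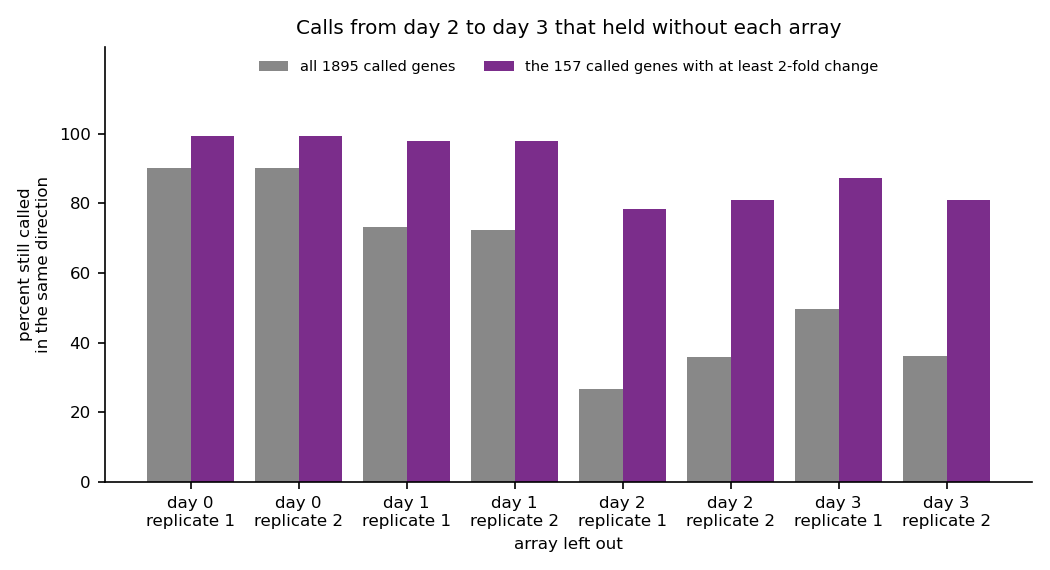
Bars give the percentage of genes called from day 2 to day 3 that were still called in the same direction when the array under the bar was left out, grey for all 1895 calls and purple for the 157 of at least 2-fold. The lowest bar is the grey one at replicate 1 of day 2 (26.6%), and the purple bars at the arrays of days 2 and 3 reach 78.3% to 87.3%.

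Most genes of mitosis fell during the last day. Of 26 tested members of this list, 21 fell and 0 rose, against 11.3% and 10.6% of all tested genes, with a median change of -0.78 against -0.01 for all. Cdc20, the activator of the anaphase-promoting complex, read 11.26 and 11.24 at day 2 and 9.98 and 10.04 at day 3, and changed by -1.24 ± 0.08 (limma adjusted p = 0.000626). The day 3 arrays lay more than 1 unit below the day 2 arrays, and all 4 detected probes of Cdc20 were called lower, by -1.24 to -1.03. Kif4, a chromosome-bound kinesin, read 8.67 and 8.57 at day 2 and 7.50 and 7.37 at day 3. It changed by -1.19 ± 0.09 (limma adjusted p = 0.00139), and its other detected probes by -1.09 and -1.03. Plk1, the polo-like kinase of mitotic entry, read 10.45 and 10.50 at day 2 and 9.50 and 9.21 at day 3, a change of -1.12 ± 0.12 (limma adjusted p = 0.003). Bub1b, a kinase-like protein of the spindle checkpoint, read 9.55 and 9.71 at day 2 and 8.70 and 8.62 at day 3 and changed by -0.98 ± 0.09 (limma adjusted p = 0.00235). For each of these genes the 2 days did not overlap. The list had 15, 18, 18 and 19 lower calls in array order, and 15 genes were called in all 4 fits. In the test of the last step against the step before, 0 of the 26 genes were called lower and 1 higher. The arrays measure the pooled RNA of a culture, and fewer cells of a type and less RNA per cell cannot be told apart.

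The promoters of these 4 genes are shown because they were the mitosis genes with the largest falls. The motif TTTGAA, known as the core of the cell cycle genes homology region, was searched on both strands, as TTTGAA or TTCAAA, in the RefSeq window from 250 bases before to 50 bases after each gene start (GRCm38.p6), and CCAAT likewise as CCAAT or ATTGG. The end letters of the motifs can be shared where both lie side by side. In the sequences, read in the direction of the gene, capitals mark these letters.
Cdc20, chr4:118437294-118437593, minus strand: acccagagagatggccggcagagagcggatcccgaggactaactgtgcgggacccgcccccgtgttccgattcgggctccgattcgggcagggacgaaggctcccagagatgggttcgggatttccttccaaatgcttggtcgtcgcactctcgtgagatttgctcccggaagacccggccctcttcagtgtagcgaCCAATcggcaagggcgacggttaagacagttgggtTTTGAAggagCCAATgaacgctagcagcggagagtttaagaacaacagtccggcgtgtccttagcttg
Kif4, chrX:100625815-100626114, plus strand: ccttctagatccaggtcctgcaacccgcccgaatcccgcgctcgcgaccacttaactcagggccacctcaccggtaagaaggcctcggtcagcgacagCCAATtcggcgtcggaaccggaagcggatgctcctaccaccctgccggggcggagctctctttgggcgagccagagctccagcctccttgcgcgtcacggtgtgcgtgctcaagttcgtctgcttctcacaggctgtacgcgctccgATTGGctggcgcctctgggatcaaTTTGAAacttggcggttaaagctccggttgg
Plk1, chr7:122159185-122159484, plus strand: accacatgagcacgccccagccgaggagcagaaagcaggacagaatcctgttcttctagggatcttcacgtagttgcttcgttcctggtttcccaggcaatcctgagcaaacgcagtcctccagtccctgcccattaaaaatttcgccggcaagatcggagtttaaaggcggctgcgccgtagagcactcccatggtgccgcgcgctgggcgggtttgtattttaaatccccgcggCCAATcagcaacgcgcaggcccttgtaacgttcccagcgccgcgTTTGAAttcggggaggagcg
Bub1b, chr2:118597961-118598260, plus strand: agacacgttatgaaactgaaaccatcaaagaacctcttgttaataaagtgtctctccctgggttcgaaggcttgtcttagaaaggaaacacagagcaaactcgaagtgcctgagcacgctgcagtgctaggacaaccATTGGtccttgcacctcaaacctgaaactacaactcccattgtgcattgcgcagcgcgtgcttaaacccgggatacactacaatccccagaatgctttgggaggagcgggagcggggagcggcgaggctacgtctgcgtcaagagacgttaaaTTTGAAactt

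All 4 promoters held TTTGAA on the gene's own strand. Of the 19 mitosis genes that fell and had a promoter in the table, 15 (78.9%) held the motif, and of all 23 tested mitosis genes with a promoter 17 (73.9%) did. It was present in 14.4% of the 7115 tested genes with a promoter and in 17.9% of all 32851 promoters in the table. CCAAT was present for 13 of the 19 genes (68.4%), for 43.5% of the tested genes and in 37.4% of all promoters. A match is a description of the sequence.

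Many genes of DNA replication were called lower as well, while Cdkn1c and Gadd45a, inhibitors of the cell cycle, rose. Of 39 tested S phase genes, 25 were called lower and 0 higher, against 11.3% and 10.6% of all tested genes. The median change was -0.51, after -1.16 in the step before. The lower calls numbered 10, 14, 14 and 17 in array order, and 9 genes were called in all 4 fits. In the test of the last step against the step before, 17 of the 39 were called higher and 0 lower, against 8.02% and 9.53% of all genes. Chaf1a, the large subunit of the chromatin assembly factor that loads histones behind the fork, read 9.59 and 9.34 at day 2 and 8.41 and 8.64 at day 3 and changed by -0.94 ± 0.12 (limma adjusted p = 0.0047). Mcm5, a subunit of the replicative helicase, read 11.69 and 11.72 at day 2 and 10.86 and 10.87 at day 3 and changed by -0.84 ± 0.10 (limma adjusted p = 0.00365). Both genes were lower on both day 3 arrays. Rfc5, of the clamp loader, and Mcm7 changed by -0.81 ± 0.10 and -0.80 ± 0.10. In the promoters of the S phase genes that fell, TTTGAA was present for 4 of 21 (19.0%).

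Of 18 tested D-type cyclins, CDK inhibitors and related genes, 6 were called higher and 0 lower, with 2, 3, 4 and 3 higher calls in array order. Cdkn1c, which codes for the CDK inhibitor p57, read 7.42 and 7.60 at day 2 and 9.96 and 9.94 at day 3. It changed by 2.44 ± 0.11, or 5.44-fold (limma adjusted p = 0.000194), and the step was larger than the step before by 1.69 (limma adjusted p = 0.00198). Cdkn1a, the CDK inhibitor p21, changed by 0.57 ± 0.09 (limma adjusted p = 0.00896), a call lost without replicate 1 of day 2 (limma adjusted p = 0.0584). All 3 of its detected probes were higher at day 3, by 0.50 to 0.76. Gadd45a, a stress-induced growth arrest gene, read 7.01 and 6.76 at day 2 and 7.76 and 7.99 at day 3 and rose by 0.99 ± 0.12 (limma adjusted p = 0.00397). Cdkn2b, the inhibitor p15, was called at 0.57 ± 0.16 and lost its call without any of the 4 arrays (limma adjusted p = 0.119 to 0.159).

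Several genes of the replication-dependent histone clusters moved in the opposite direction to the S phase genes. This group was formed after the values had been seen, so its counts are a description. Of 44 tested cluster genes 22 were called higher and 6 lower. In class H2B 9 of 11 were higher, in H3 5 of 9 and in H4 5 of 10, with 0 lower in each, whereas in H2A 2 of 12 were higher and 6 lower. H2ac18, an H2A gene, read 9.61 and 9.69 at day 2 and 12.24 and 12.15 at day 3. It rose by 2.54 ± 0.09, or 5.84-fold (limma adjusted p = 0.000194), and its 2 days lay far apart. H2bc18, an H2B gene, read 7.90 and 8.37 at day 2 and 10.36 and 10.49 at day 3 and rose by 2.29 ± 0.22 (limma adjusted p = 0.00277). H4c8 read 8.09 and 7.97 at day 2 and 10.39 and 10.33 at day 3 and rose by 2.33 ± 0.10 (limma adjusted p = 0.000194). Other members of the H2A class were lower at day 3, such as H2ac24, which read 14.15 and 14.13 at day 2 and 13.65 and 13.49 at day 3 and changed by -0.57 ± 0.09 (limma adjusted p = 0.00898). Its call was lost without replicate 1 of day 2 or replicate 2 of day 3 (limma adjusted p up to 0.0583). Without each of the 4 arrays, 8 H2B, 3 H3 and 5 H4 genes were called higher and 1 H2A gene, H2ac18, while 0 H2A genes kept a lower call in all 4 fits. These genes have near-identical copies, so a probe may also read its neighbours, and the assignment to single genes is uncertain. The labelling kit named in the labels, MessageAmp, primes on poly(A) tails, which most messages of these genes lack, so the probes may read only part of the message of a gene.

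**Figure D3:**
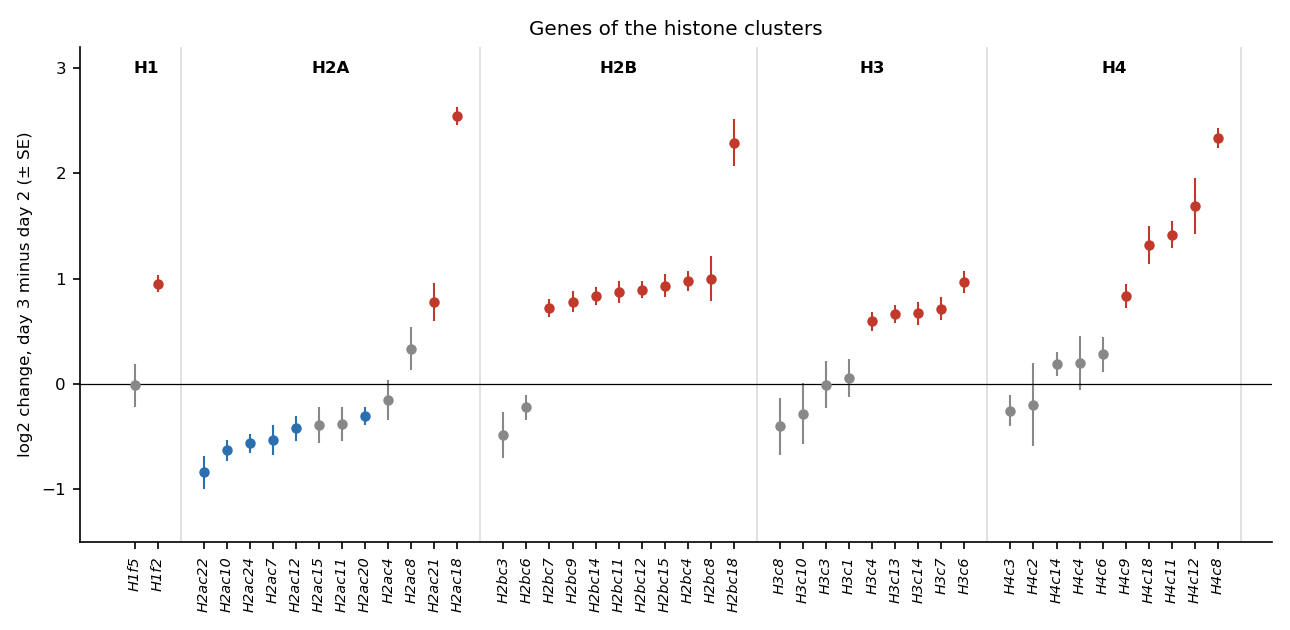
Points are the log2 change from day 2 to day 3 of 44 histone cluster genes with the standard error of the difference, grouped by class, red for called higher, blue for called lower and grey for not called. The 9 red H2B genes contrast with the 6 blue H2A genes, and H2ac18 stands at 2.54.

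The promoter of H2ac18 is shown for comparison with those of the mitosis genes, with CCAAT or ATTGG and the TATA-box letters TATAAA or TTTATA in capitals.
H2ac18, chr3:96245247-96245546, plus strand: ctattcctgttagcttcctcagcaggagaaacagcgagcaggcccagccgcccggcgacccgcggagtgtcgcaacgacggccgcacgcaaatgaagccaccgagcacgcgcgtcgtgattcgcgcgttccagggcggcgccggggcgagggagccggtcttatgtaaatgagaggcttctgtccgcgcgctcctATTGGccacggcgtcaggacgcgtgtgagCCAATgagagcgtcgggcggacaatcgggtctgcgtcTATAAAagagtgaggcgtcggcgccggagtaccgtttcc

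The window for H2ac18 held both motifs, with both CCAAT matches before the annotated gene start and TATAAA after it. TATAAA was present for 11 of the 20 cluster genes that rose and had a promoter in the table (55.0%), for 4 of the 6 that fell (66.7%), for 9.35% of the tested genes and in 13.6% of all promoters. TTTGAA, the motif of the mitosis promoters, was present for 7 of the 20 that rose (35.0%), for 3 of the 6 that fell (50.0%) and for 18 of all 40 tested cluster genes with a promoter (45.0%), against 14.4% of the tested genes. CCAAT was present for 15 of those 20 (75.0%) and for all 6 that fell.

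Many members of a list of ribosome assembly genes and other known MYC targets, called ribosome biogenesis for short, were called lower. Of 39 tested members 23 were lower and 0 higher, against 11.3% and 10.6% of all tested genes. The median change was -0.53, after -1.05 in the step before. The lower calls numbered 4, 11, 19 and 11 in array order, and 4 genes were called in all 4 fits. In the test against the step before, 12 of the 39 were called higher and 0 lower, against 8.02% and 9.53% of all genes. Srm, the spermidine synthase gene, read 11.57 and 11.62 at day 2 and 10.89 and 10.80 at day 3, and changed by -0.75 ± 0.10 (limma adjusted p = 0.00457). All 3 of its detected probes were called lower, by -0.89 to -0.75. Fbl, the nucleolar methyltransferase fibrillarin, read 12.27 and 12.21 at day 2 and 11.56 and 11.40 at day 3 and changed by -0.76 ± 0.12, a call lost without replicate 1 of day 2 or replicate 2 of day 3 (limma adjusted p up to 0.0604). Noc4l was called at -0.99 ± 0.19 and lost its call without each array but replicate 1 of day 3.

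Among ATF4 targets and genes of serine and amino acid metabolism, many of which the factor ATF4 is known to drive, 8 of 30 were called lower and 3 higher. The changes of the list ran from -1.29 to 0.97, with 18 negative and 12 positive. All tested genes gave 11.3% lower and 10.6% higher. Psat1, an enzyme of serine synthesis, read 10.87 and 10.95 at day 2 and 10.01 and 10.17 at day 3 and fell with a change of -0.82 ± 0.10 (limma adjusted p = 0.00399). Phgdh, which starts that pathway, read 6.38 and 6.44 at day 2 and 5.76 and 5.22 at day 3, with a change of -0.92 ± 0.19 (limma adjusted p = 0.0184). It was detected on 1 of the 2 day 3 arrays, and among the 4 reduced fits its call held only without replicate 1 of day 3. Shmt1, the cytosolic serine hydroxymethyltransferase, gave -1.29 ± 0.22, a call that held likewise. The list had 1, 2, 5 and 1 lower calls in array order. Of 21 tested chaperone genes of the endoplasmic reticulum 3 were called lower and 0 higher, and of 18 genes of mitochondrial biogenesis also 3 and 0, with 0 of these 6 calls kept in all 4 fits.

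Of 25 tested genes of bone resorption, 4 were called higher and 1 lower in the last day (16.0% and 4%), with a median change of 0.08 and 1, 3, 3 and 2 higher calls in array order. Over all tested genes 10.6% were higher and 11.3% lower. The count of resorption genes depended on the processing. Without background correction 10 were higher and 2 lower, where 1266 of all genes were higher and 1306 lower. With robust variance estimates 8 were higher and 2 lower, where 1200 of all genes were higher and 1363 lower. Ctsk, the gene of cathepsin K, read 15.01 and 14.91 at day 2 and 15.04 and 15.01 at day 3 and changed by 0.06 ± 0.09 (limma adjusted p = 0.652). Mmp9, a gelatinase, read 14.77 and 14.71 at day 2 and 14.92 and 14.94 at day 3 and changed by 0.19 ± 0.09 (limma adjusted p = 0.193). The arrays of the 2 days differed by little, and the highest level of any gene on each array was 15.34. Whether the top of the scale limited these changes was not tested. Car2, the carbonic anhydrase that supplies protons, read 10.88 and 10.81 at day 2 and 10.76 and 10.74 at day 3 and changed by -0.09 ± 0.11 (limma adjusted p = 0.601).

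Clcn7, the gene of the chloride channel ClC-7, rose. It read 12.41 and 12.31 at day 2 and 13.30 and 13.26 at day 3 and changed by 0.92 ± 0.10, or 1.89-fold (limma adjusted p = 0.00316). Acp5, the tartrate-resistant acid phosphatase gene, read 10.13 and 10.28 at day 2 and 11.04 and 11.06 at day 3 and changed by 0.84 ± 0.15 (limma adjusted p = 0.0112). Its call was lost without replicate 1 of day 2 or replicate 2 of day 3 (limma adjusted p up to 0.0675). Tcirg1, the a3 subunit of the proton pump, read 13.72 and 13.78 at day 2 and 14.27 and 14.27 at day 3 and rose by 0.52 ± 0.08 (limma adjusted p = 0.00726), a call lost without replicate 1 of day 2 (limma adjusted p = 0.0511). All 4 of its detected probes were called higher, by 0.47 to 0.77. Sh3pxd2a, the podosome scaffold Tks5, was detected on 1 of the 2 day 2 arrays and called at 0.76 ± 0.21, and its call was lost without any of the 4 arrays (limma adjusted p = 0.0605 to 0.188). Adam8, a membrane metalloproteinase, read 9.63 and 9.59 at day 2 and 8.91 and 8.99 at day 3 and fell, with a change of -0.66 ± 0.10 (limma adjusted p = 0.00677).

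The 20 tested resorption genes that were not called, Ctsk, Mmp9 and Car2 among them, ranged from -0.59 for Itgb3 to 0.55 for Mmp14, the membrane-type metalloproteinase (limma adjusted p = 0.0865). Mmp14 was called higher when background correction was left out (limma adjusted p = 0.00021), and also with an offset of 50, cyclic loess, the series table, only the arrays of days 2 and 3, robust variance estimates and without either day 0 array (limma adjusted p = 0.00469 to 0.0349). Itgb3, the integrin β3 gene, was detected on both day 2 arrays and on no day 3 array. It read 5.91 and 5.28 at day 2 and 5.13 and 4.88 at day 3 (limma adjusted p = 0.116). With the series table and with the replicate block it was called lower (limma adjusted p = 0.0468 and 0.0401). Src, the kinase needed for the ruffled border, gave 0.24 ± 0.08 by the probe used and -0.33 by its other detected probe, neither called, and the first was called without background correction (limma adjusted p = 0.0193). Atp6v0d2 and Syt7 did not pass the detection filter and were not tested. In the test against the step before, 16 of 25 resorption genes changed by less in the last step or fell, against 9.53% of all tested genes, and 1 changed by more. For Car2 the difference between the steps was -3.14 (limma adjusted p = 0.000326), and for Rab38, a lysosome-related GTPase, it was -5.24 (limma adjusted p = 0.000247).

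**Figure D4:**
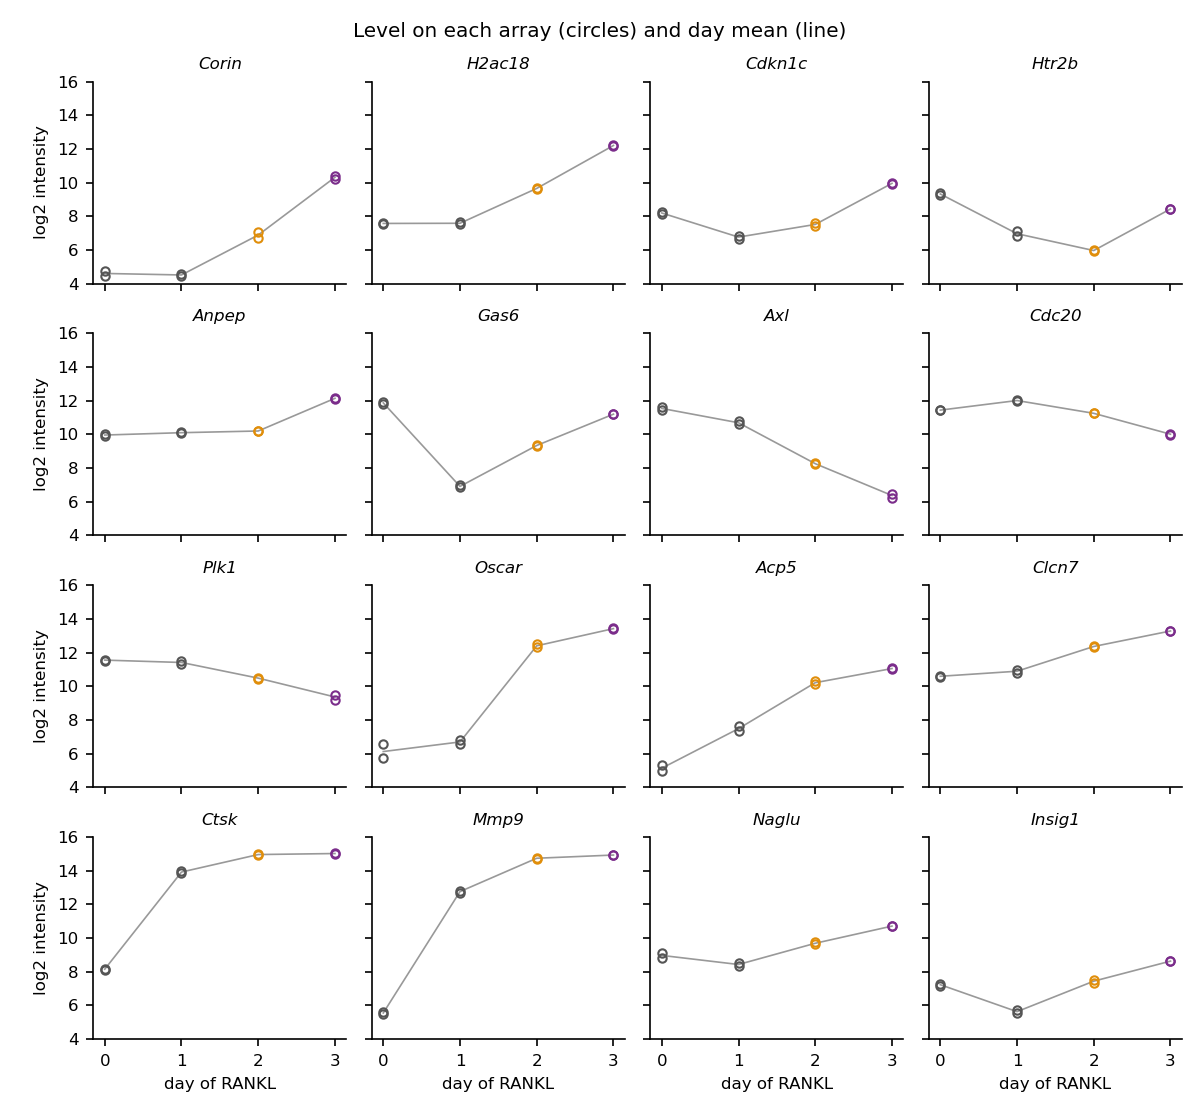
Each panel shows 1 gene, with day of RANKL on the horizontal axis, log2 intensity on the vertical axis, circles for single arrays and a line through the day means. Ctsk and Mmp9 level off between days 2 and 3, Corin, H2ac18 and Clcn7 climb, and Axl, Cdc20 and Plk1 fall.

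Among fusion genes 4 of 13 were called higher and 0 lower, with 0, 1, 1 and 0 calls in array order. The shares over all tested genes were 10.6% higher and 11.3% lower. Dcstamp, the membrane protein needed for osteoclast fusion, read 10.64 and 10.92 at day 2 and 11.49 and 11.45 at day 3. It changed by 0.69 ± 0.15 (limma adjusted p = 0.0215). The call held in the reduced fits only without replicate 2 of day 2, with adjusted p-values of 0.0446 to 0.104 from limma. Ocstamp, its relative, read 8.29 and 8.21 at day 2 and 7.42 and 8.63 at day 3 and changed by -0.23 ± 0.38 (limma adjusted p = 0.718). Its day 3 arrays lay on either side of the day 2 arrays, and without replicate 1 of day 3 the change was 0.38. The tetraspanin Cd9 was called at 0.43 ± 0.08, and lost its call without each array but replicate 1 of day 3 (limma adjusted p up to 0.0695).

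Of 14 tested surface receptors of osteoclasts 3 were called higher and 1 lower, with 2 higher calls without each of the 4 arrays. All tested genes gave 10.6% higher and 11.3% lower. Without background correction 6 of the receptors were higher and 2 lower, where 1266 of all genes were higher and 1306 lower. Calcr, the calcitonin receptor, read 6.20 and 5.99 at day 2 and 7.21 and 6.99 at day 3 and rose by 1.00 ± 0.12, or 2.01-fold (limma adjusted p = 0.00398), and its other detected probe by 1.46. S1pr2, a receptor for sphingosine 1-phosphate, read 8.39 and 8.63 at day 2 and 9.21 and 9.15 at day 3 and rose by 0.67 ± 0.10 (limma adjusted p = 0.00746). Oscar, an immunoglobulin-like receptor that binds collagen, read 12.32 and 12.49 at day 2 and 13.38 and 13.45 at day 3 and changed by 1.01 ± 0.25 (limma adjusted p = 0.0324). Its days stood about 1 unit apart, and its standard error of 0.25 draws on the spread of all 8 arrays. Its call was lost with the replicate block (limma adjusted p = 0.0512) and without either day 1 array. It was also lost without each of the 4 arrays of days 2 and 3 in turn, where the changes were 0.94 to 1.09. Trem2, a receptor that signals through DAP12, read 10.96 and 11.15 at day 2 and 10.56 and 10.51 at day 3 and was called at -0.52 ± 0.11. Among the fits without an array of day 2 or 3, this call held only without replicate 1 of day 2. Tnfrsf11a, which codes for RANK itself, changed by 0.13 ± 0.13 (limma adjusted p = 0.538).

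Of 23 tested RANK signalling adaptors and kinases 1 fell and 0 rose, against 11.3% and 10.6% of all tested genes. It was Rcan1, an inhibitor of calcineurin, which read 11.91 and 11.93 at day 2 and 11.03 and 10.99 at day 3 and changed by -0.91 ± 0.09 (limma adjusted p = 0.00277), with -1.73 at its other detected probe. Of 28 tested osteoclast transcription factors 3 were called higher and 1 lower (10.7% and 3.57%), with 1, 1, 2 and 1 higher calls in array order. Jund, of the AP-1 family, read 7.92 and 8.00 at day 2 and 8.64 and 8.79 at day 3 and rose by 0.76 ± 0.10 (limma adjusted p = 0.00545). Nfatc1, named after its values were seen, read 11.25 and 11.18 at day 2 and 11.22 and 11.24 at day 3 and changed by 0.01 ± 0.13 (limma adjusted p = 0.962), and its sign turned to -0.08 when array medians were scaled and also without replicate 2 of day 2 (-0.02) or of day 3. Among 17 repressors of osteoclast differentiation 3 were called higher and 1 lower, with 2, 3, 1 and 1 higher calls in array order. Tsc22d3, the glucocorticoid-induced leucine zipper, read 10.83 and 10.81 at day 2 and 11.72 and 11.77 at day 3 and rose by 0.93 ± 0.11 (limma adjusted p = 0.00396).

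Many lysosomal genes were called higher. Of 40 tested lysosomal enzymes and membrane proteins, 18 were higher and 0 lower, against 10.6% and 11.3% of all tested genes. The median change was 0.34. The higher calls numbered 7, 7, 10 and 6 in array order, and 4 genes were called in all 4 fits. Naglu, which degrades heparan sulfate, read 9.64 and 9.75 at day 2 and 10.70 and 10.71 at day 3 and rose by 1.01 ± 0.12, or 2.02-fold (limma adjusted p = 0.00388). Glb1, the lysosomal beta-galactosidase, read 12 and 12.06 at day 2 and 12.70 and 12.92 at day 3 and rose by 0.78 ± 0.11 (limma adjusted p = 0.00531). Ppt1, which removes palmitate from proteins, read 8.71 and 8.54 at day 2 and 9.35 and 9.43 at day 3 and rose by 0.77 ± 0.10 (limma adjusted p = 0.0048). All day 3 readings of these genes exceeded the day 2 readings. Lipa, the lysosomal acid lipase, had the largest change of the list at 1.24 ± 0.30 (limma adjusted p = 0.0292), but its day 3 arrays read 9.97 and 10.57 and its call was lost without each array except replicate 1 of day 3 (limma adjusted p up to 0.129). Among 16 tested subunits of the vacuolar ATPase 5 were called higher and 0 lower, with a median of 0.22, and 0, 2, 1 and 1 were called in array order. Atp6v1a, the catalytic subunit, read 10.88 and 11.06 at day 2 and 11.67 and 12.02 at day 3 and was called at 0.87 ± 0.23 (limma adjusted p = 0.0369). That call was lost without each of the 4 arrays in turn, with changes of 0.70 to 1.04. In the test against the step before, 9 of the 16 subunits changed by less in the last step or fell and 0 changed by more. All tested genes gave 9.53% and 8.02%. The median change of the subunits in the step before was 0.89.

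Of 23 tested autophagy genes 6 were called higher and 0 lower, with 2, 2, 2 and 4 called in array order. Map1lc3a, an LC3 protein of the autophagosome membrane, read 8.45 and 8.37 at day 2 and 9.89 and 10.11 at day 3 and rose by 1.59 ± 0.15, or 3-fold (limma adjusted p = 0.0027). Its other detected probe rose by 1.33. Atg12, a ubiquitin-like protein of the conjugation system that lipidates LC3, read 9.34 and 9.20 at day 2 and 10.03 and 10.22 at day 3 and rose by 0.86 ± 0.10 (limma adjusted p = 0.00398).

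Of 23 tested cholesterol synthesis genes 10 were called higher and 0 lower, against 10.6% and 11.3% of all tested genes. The median change was 0.46. The higher calls numbered 1, 3, 4 and 2 in array order, and Insig1 was the only gene called in all 4 fits. Insig1, which holds the SREBP regulator of these genes in the endoplasmic reticulum and is itself a target of SREBP, read 7.53 and 7.35 at day 2 and 8.66 and 8.61 at day 3, a rise of 1.19 ± 0.11 (limma adjusted p = 0.00268). Its other detected probes gave 1.11 and 0.16, the latter not called. Cyp51, the lanosterol demethylase, read 8.52 and 8.49 at day 2 and 9.31 and 9.25 at day 3 and was called at 0.77 ± 0.14, a call lost without any of the 4 arrays (limma adjusted p = 0.0546 to 0.0655). Msmo1 was called at 0.69 ± 0.14 and was lost likewise (limma adjusted p = 0.0657 to 0.0815), and Mvd at 0.71 ± 0.14, lost without replicate 1 of day 2 or of day 3 (limma adjusted p up to 0.0864).

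Among LXR targets and other lipid handling genes 5 of 16 were called higher and 2 lower, with 1, 1, 2 and 1 higher calls in array order. Apoe, the apolipoprotein E gene, read 9.96 and 10.07 at day 2 and 11.15 and 11.10 at day 3 and rose by 1.11 ± 0.08, or 2.16-fold (limma adjusted p = 0.00139). Cyp27a1, the sterol 27-hydroxylase, read 8.27 and 8.31 at day 2 and 7.48 and 7.43 at day 3 and fell, with a change of -0.84 ± 0.08 (limma adjusted p = 0.00298), and all 3 of its detected probes were called lower.

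Of 22 tested glycolysis genes 6 were called higher and 0 lower, and 3, 4, 5 and 5 were called in array order. Aldoc, an aldolase, read 10.44 and 10.40 at day 2 and 11.68 and 11.75 at day 3 and rose by 1.3 ± 0.17, or 2.46-fold (limma adjusted p = 0.00486). Pdk1, the kinase that restrains pyruvate dehydrogenase, read 9.77 and 9.66 at day 2 and 10.84 and 10.73 at day 3 and rose by 1.07 ± 0.10 (limma adjusted p = 0.00267). The liver-type phosphofructokinase gene Pfkl rose by 0.88 ± 0.09 (limma adjusted p = 0.003), and its other detected probe gave 0.34, not called. Slc16a3, a lactate exporter, was not well above background on the day 2 arrays, and its day 3 level was higher at least 2.3-fold (limma adjusted p = 0.0164). It lost its call without either day 2 array, and its other detected probe gave 0.09, not called. Of 69 tested genes of oxidative phosphorylation, 1 was called higher and 1 lower (1.45% each), with a median of 0.06. These were Ndufb5 at 0.57 ± 0.13 and Ndufa8 at -0.35 ± 0.08, both subunits of complex I, and both calls were lost without any of the 4 arrays (limma adjusted p = 0.0519 to 0.119 and 0.0756 to 0.131). In the test against the step before, 18 of the 69 changed by less in the last step or fell and 0 changed by more, against 9.53% and 8.02% of all genes. Among 24 genes of the tricarboxylic acid cycle and its outlets the only call was Acly, the ATP citrate lyase, at 0.51 ± 0.09, which was lost without either replicate 2. Without background correction the higher calls were 6 for oxidative phosphorylation and 5 for the tricarboxylic acid cycle, and with cyclic loess 4 and 5. Over all tested genes the higher calls numbered 1266 and 1005 in these 2 settings, against 917 in the main fit.

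Of 14 tested osteoclast-derived coupling factors, signals by which osteoclasts are known to act on bone-forming cells and other neighbours, 6 were called higher and 1 lower, with a median of 0.42. Gas6, a ligand of the TAM receptors, read 9.33 and 9.35 at day 2 and 11.19 and 11.21 at day 3 and rose by 1.86 ± 0.08, or 3.63-fold (limma adjusted p = 0.000194). Axl, a TAM receptor for Gas6, read 8.28 and 8.24 at day 2 and 6.25 and 6.48 at day 3 and fell, with a change of -1.90 ± 0.12, or 3.72-fold lower (limma adjusted p = 0.000626). Neither gene's days overlapped, and Axl had the largest fall of all 8663 genes apart from those given as bounds. Sphk1, which makes sphingosine 1-phosphate, read 10.61 and 10.62 at day 2 and 11.77 and 11.88 at day 3 and rose by 1.21 ± 0.10 (limma adjusted p = 0.00215), while its other detected probe gave 0.04, not called. Vegfa was called at 1.03 ± 0.24 and lost its call without any of the 4 arrays (limma adjusted p = 0.0515 to 0.132). Lif, a cytokine of the interleukin-6 family, was called at 0.89 ± 0.12 (limma adjusted p = 0.00545), but without either day 3 array another probe, which gave 0.09 on all arrays, stood for the gene and the call was lost. Osm, a related cytokine, was called at -0.74 ± 0.12 (limma adjusted p = 0.00937) and lost its call without either replicate 2 and with the mean of its detected probes (limma adjusted p = 0.108). The list had 3, 4, 3 and 3 higher calls in array order.

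Macrophage genes showed no common direction, with 4 of 26 higher and 4 lower, and with 1, 2, 2 and 1 higher and 3, 3, 4 and 3 lower calls in array order. The shares over all tested genes were 10.6% higher and 11.3% lower. Fcgr4, a receptor for IgG, read 9.02 and 9.05 at day 2 and 8.37 and 8.30 at day 3. It changed by -0.70 ± 0.10 (limma adjusted p = 0.00696). Fcgr2b, another such receptor, read 8.63 and 8.77 at day 2 and 8.06 and 7.95 at day 3. It changed by -0.70 ± 0.10 (limma adjusted p = 0.00545). Other detected probes of Fcgr2b gave -0.78 and -0.01, neither called, and the call was lost with the mean of all detected probes (limma adjusted p = 0.101). Of 8 tested complement genes 3 were called higher and 0 lower, with 1 higher call without each of the 4 arrays. C2, a component of the classical pathway, read 6.03 and 6.04 at day 2 and 7.10 and 7.18 at day 3 and rose by 1.10 ± 0.13 (limma adjusted p = 0.00389), whereas C1qa and C1qc, called at 0.63 and 0.36, lost their calls without any of the 4 arrays.

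Of 40 tested interferon-stimulated genes 13 were called lower and 0 higher (32.5% lower, against 11.3% of all genes), with a median change of -0.33. The lower calls numbered 7, 6, 10 and 7 in array order, and 5 genes kept the call in all 4 fits. Gbp3, a guanylate-binding protein, read 8.86 and 8.71 at day 2 and 7.48 and 7.92 at day 3 and changed by -1.09 ± 0.15 (limma adjusted p = 0.00545). Oas1g, an oligoadenylate synthetase, read 10.53 and 10.71 at day 2 and 9.47 and 9.60 at day 3 and changed by -1.08 ± 0.16 (limma adjusted p = 0.00718), while its other detected probes gave -1.38, called, and -0.36, not called. Dhx58, the RNA sensor LGP2, read 8.14 and 8.15 at day 2 and 7.34 and 7 at day 3 and changed by -0.97 ± 0.12 (limma adjusted p = 0.00399), and Ifitm3, a membrane protein that blocks virus entry, changed by -0.96 ± 0.14. All day 3 readings of these genes were below those of day 2. In the same family Ifitm1 went the other way. It was not well above background on the day 2 arrays, read 4.76 and 5.07 at day 2 and 6.95 and 6.91 at day 3, and its day 3 level was higher at least 3.2-fold (limma adjusted p = 0.000647). Both of its detected probes were called higher, and it fell under the detection filter without either day 3 array.

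Among 26 tested chemokines and cytokines 4 were called higher and 2 lower, with 2, 3, 2 and 3 higher calls in array order. All tested genes gave 10.6% higher and 11.3% lower. Il1rn, the antagonist of the interleukin-1 receptor, read 7.78 and 7.88 at day 2 and 9.63 and 9.73 at day 3. It rose by 1.85 ± 0.09, or 3.61-fold (limma adjusted p = 0.000214). Cxcl10 was called at -0.84 ± 0.19 and lost its call without any of the 4 arrays (limma adjusted p = 0.0529 to 0.112).

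Of 22 tested genes of the BCL2 family and caspases 6 were called higher and 0 lower, with 4, 3, 5 and 4 called in array order. The members with the largest changes code for proteins with only the BH3 domain, which promote cell death. Pmaip1, the gene of Noxa, read 5.17 and 5.75 at day 2 and 7.14 and 7.50 at day 3 and rose by 1.86 ± 0.20, or 3.64-fold (limma adjusted p = 0.00316), with detection on 1 of the 2 day 2 arrays. Bbc3, the gene of Puma, read 9 and 8.97 at day 2 and 9.78 and 9.84 at day 3 and rose by 0.83 ± 0.09 (limma adjusted p = 0.003), and Bcl2l11, the gene of Bim, read 9.80 and 9.79 at day 2 and 10.57 and 10.57 at day 3 and rose by 0.78 ± 0.11 (limma adjusted p = 0.0067). Other detected probes of Bbc3 gave -0.15 and 0.26 and those of Bcl2l11 -0.03 to 0.46, none called, and with the mean of all detected probes both calls were lost (limma adjusted p = 0.0623 and 0.0741). Bnip3l, a mitophagy receptor, was called at 0.67 ± 0.11, a call lost without replicate 2 of day 2 (limma adjusted p = 0.0543).

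**Figure D5:**
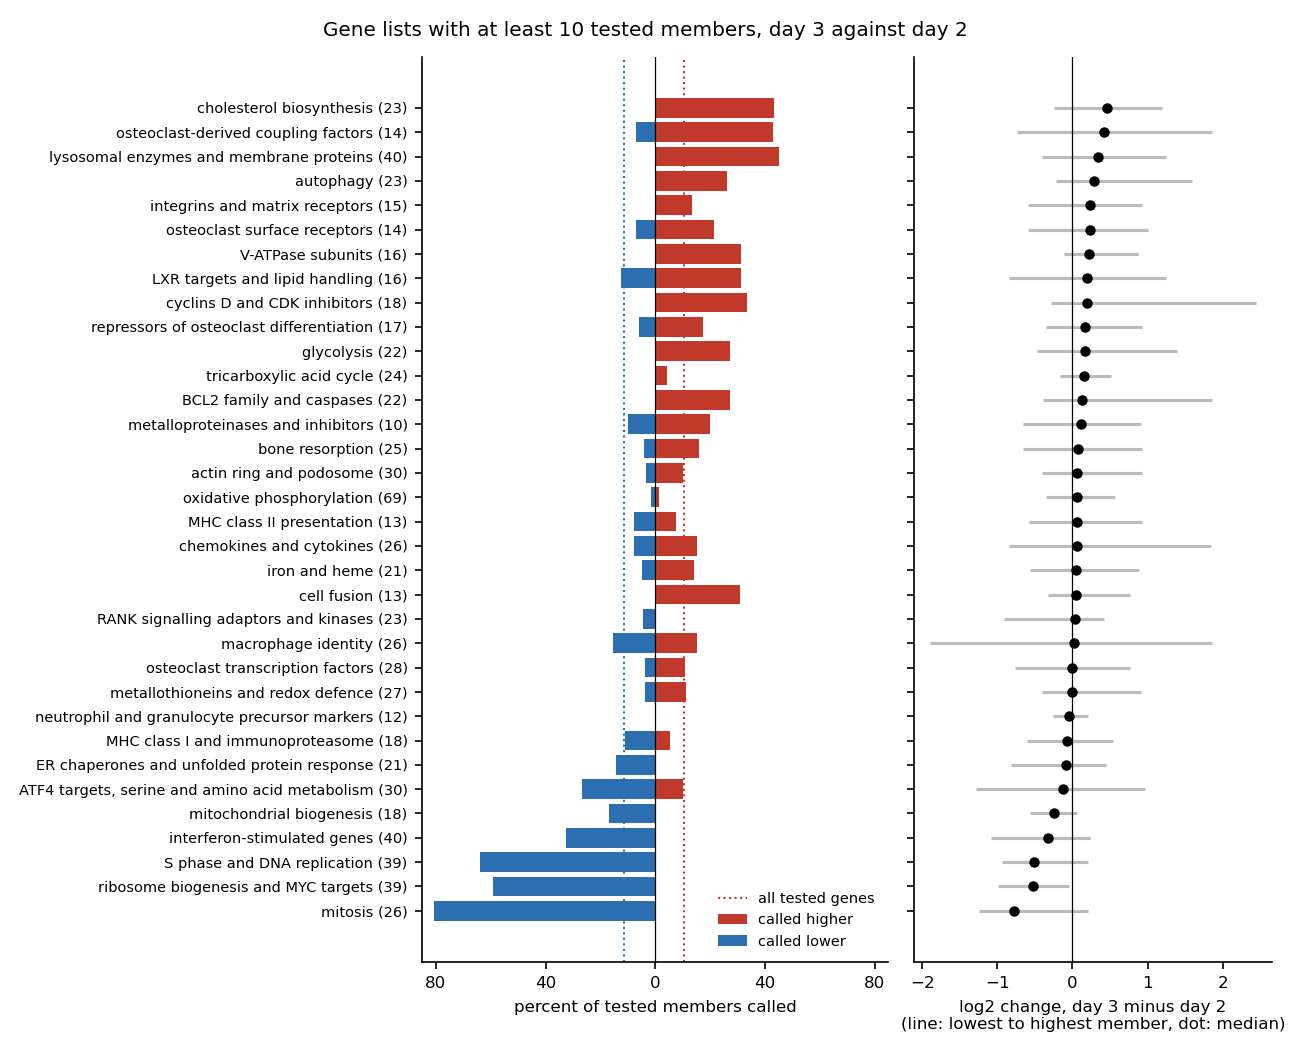
Left, the percentage of tested members called higher (red) or lower (blue) from day 2 to day 3 in each gene list with at least 10 tested members, with dotted lines at the percentages for all tested genes (10.6% and 11.3%). Right, the median (dot) and the range (line) of the log2 change. Mitosis, S phase and ribosome biogenesis are at the bottom and cholesterol synthesis at the top.

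The largest single increases included genes outside these lists. Corin, a transmembrane serine protease known for activating atrial natriuretic peptide, read 6.69 and 7.07 at day 2 and 10.21 and 10.40 at day 3 and rose by 3.42 ± 0.16, or 10.7-fold (limma adjusted p = 0.000194). Enpp5, of the ectonucleotide pyrophosphatase family, read 6.50 and 6.30 at day 2 and 9.03 and 8.95 at day 3 and rose by 2.59 ± 0.13 (limma adjusted p = 0.000214). Both genes were not detected on any array of days 0 and 1. Ndrg1, known as a hypoxia-inducible gene, read 7.97 and 8.10 at day 2 and 10.18 and 10.22 at day 3 and rose by 2.16 ± 0.14 (limma adjusted p = 0.000796), and its other detected probe by 2.26. Anpep, aminopeptidase N, read 10.19 and 10.22 at day 2 and 12.09 and 12.18 at day 3 and rose by 1.93 ± 0.09 (limma adjusted p = 0.000194). Its level had changed by 0.10 in the step before, and the difference between the steps was 1.83 (limma adjusted p = 0.000791). Stac2, Yipf7, Ppp1r27, Coq8a and Lpar2 rose by 1.89 to 2.06, and for Lpar2 another detected probe gave 0.62. Chst8, a sulfotransferase, was not well above background on the day 2 arrays, and its day 3 level was higher at least 3.18-fold (limma adjusted p = 0.000557). It fell under the detection filter without either day 3 array.

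Among the largest falls after Axl was Cish, an inhibitor of cytokine signalling that STAT5 is known to induce, which read 7.11 and 7.31 at day 2 and 5.83 and 5.16 at day 3 and changed by -1.71 ± 0.25 (limma adjusted p = 0.00644), with detection on 1 of the 2 day 3 arrays. Parvg, an actin-linked parvin, read 7.42 and 7.42 at day 2 and 6.09 and 6.03 at day 3 and changed by -1.36 ± 0.08 (limma adjusted p = 0.000454). Nup210, a nuclear pore glycoprotein, read 9.39 and 9.49 at day 2 and 8.20 and 8.27 at day 3 and changed by -1.21 ± 0.10 (limma adjusted p = 0.0021). Fbxl13, Tmem267, Smpdl3b, Sec16b, Mnd1 and Nipsnap1 changed by -1.70 to -1.20. Adig was called at -1.36 ± 0.26 with detection on 1 of the 2 day 3 arrays, and lost its call without replicate 1 of day 2 (limma adjusted p = 0.0806). Mafa, a transcription factor of the MAF family, was not well above background on the day 3 arrays and was at least 2.11-fold lower (limma adjusted p = 0.00099), and its other detected probe gave -0.36, not called.

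Some genes moved against an earlier step. Of the 8663 tested genes, 100 rose in the last day after falling from day 1 to day 2 and 106 fell after rising. Each was called in both steps and in the test of their difference. Calls were made for 21.9% of genes in the last step, 48.4% in the step before and 45.9% in the first step. Relative to the step from day 0 to day 1, which shares no array with the last, 373 rose after falling and 515 fell after rising. The first and last steps cross the runs of sample numbers in opposite directions. A difference between the runs and an opposed step therefore cannot be told apart there. Htr2b, a serotonin receptor, had day means of 9.32, 6.96, 5.96 and 8.43 from day 0 to day 3, and rose by 2.47 ± 0.12 in the last step (limma adjusted p = 0.000214). Npy, the neuropeptide Y gene, had day means of 11, 9.88, 7.37 and 8.31 and rose by 0.93 ± 0.10 (limma adjusted p = 0.003). Gas6 had day means of 11.87, 6.91, 9.34 and 11.20. In the other direction Fcgrt, the neonatal Fc receptor gene, had day means of 10.39, 8.32, 11.35 and 10.58 and changed by -0.77 ± 0.10 in the last step (limma adjusted p = 0.00486), and Gja1, the gap junction gene of connexin 43, had day means of 9.17, 12.40, 10.77 and 9.84 and changed by -0.93 ± 0.12 (limma adjusted p = 0.00486).

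Markers of other marrow cells were few and dim, and their part in these results was not tested. Among 6 tested osteoblast and stromal markers of 20 listed, Dcn, the proteoglycan decorin, read 7.10 and 7.33 at day 2 and 6.26 and 5.70 at day 3 and fell by 1.24 ± 0.18 (limma adjusted p = 0.00704), while Col5a1 was not well above background on the day 2 arrays, rose at least 1.42-fold and kept its call only without replicate 1 of day 3. The summed linear level of the 6 markers was 527 and 627 at day 2 and 484 and 435 at day 3. Of 12 neutrophil markers and 8 dendritic cell markers 0 were called, with sums of 482 to 527 and 2190 to 2250 over the 4 arrays. Since 9 of these neutrophil markers and 2 of the dendritic cell markers were detected on none of the 4 arrays, their share of the sums is background. Of 5 B lineage markers Blnk was called at -0.44 ± 0.10 (sums of 852 to 879 at day 2 and 639 to 743 at day 3), and of 5 T and NK markers Il7r at -0.41 ± 0.10 (384 to 420 and 377 to 520). Of 3 erythroid and megakaryocyte markers Vwf was called at 1.14 ± 0.19 (158 to 185 and 236 to 254), and of 2 mast cell and basophil markers Gata2, not well above background at day 3, at least 1.42-fold lower (89.0 to 118 and 69.9 to 70.1). The last 4 calls were each lost in at least 2 of the 4 fits. Of the osteoclast markers, Acp5, Ctsk, Mmp9, Calcr, Dcstamp, Ocstamp, Oscar and Nfatc1 were detected on all 4 arrays, whereas Itgb3 was detected on the day 2 arrays only and Atp6v0d2 on too few arrays to be tested.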

How the data were processed

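Total RNA, extracted with TRIzol per the labels, was read on 8 Illumina MouseRef-8 v2.0 arrays. The deposited table holds, per the file headers, an average signal intensity and a detection p-value for each of 25697 probes on each array, and these intensities were not normalized by the authors. The deposited series table of processed intensities, lacking values for 56 probes, served as an alternative. The number of arrays limits the precision, and the table gives no slide, so the planned slide block was not run.

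Intensities were background-corrected with normexp, with an offset of 16 and negative controls estimated through the detection p-values, then quantile-normalized and put on the log2 scale (neqc in limma 3.58.1, R 4.3.3), over all 8 arrays. Probes with a detection p-value under 0.05 on at least 2 arrays were kept (12683, of which 11946 with a gene symbol from the platform annotation). Each of 8663 genes was represented by its brightest probe on average. Several detected probes were present for 2347 genes, and for 3 of these they were called in opposite directions. A limma fit with a mean per day (4 residual degrees of freedom) gave two-sided moderated tests with Benjamini-Hochberg adjustment over all genes, for each step and for the differences between steps, and was tested on simulated data. Same-numbered arrays of days 2 and 3 had deviations correlated at 0.068 across genes, so they showed little shared deviation. This cannot show whether equal numbers mark the same culture or animal, and the arrays were fitted as unpaired.

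Genes not detected on any array of a day are given as at least N-fold, the bright day's mean against, per dim array, the higher of the lowest detected signal and the probe's own. The genes named were the 15 largest changes in each direction among called genes detected on both days, the 5 largest such bounds in each direction, up to 4 called members of each list, all tested members of 3 osteoclast lists and the 5 largest opposed steps in each direction. Nfatc1, H2ac24 and the histone group were chosen after their values were seen. The members and the 41 gene lists were chosen with earlier results of these data known. Alternatives covered background correction, normalization, the filter, the probe rule, the arrays fitted, the replicate block, the variance model and leaving out each array.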

Additional observations from a re-analysis of the deposited data

Results flagged for a closer look

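Genes were marked for a closer look where the change from day 2 to day 3 differed from the change in an earlier step by limma's test of that difference and was called in the opposite direction. Values are differences in log2 change, and days of 2 arrays are too few for a test of single deviating arrays.

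Against the step before, which shares the day 2 arrays, Pdpn, the membrane glycoprotein podoplanin, differed by 4.49 (limma adjusted p = 0.000393), with 0.77 in the last step and -3.72 before. Slpi, a secreted protease inhibitor, differed by 4.02, Htr2b by 3.47, Npy by 3.44 and Arg1, arginase, by 3.30. Of these 5, Htr2b and Npy kept their last-step call without each of the 4 arrays of days 2 and 3, while Pdpn, Slpi and Arg1 lost it without some. Chac1, a glutathione-degrading enzyme, differed by -4.14, with -0.38 after 3.76, and its last-step call was lost without any of the 4 arrays. Fcgrt differed by -3.80, Cish by -3.74, Tmem267 by -3.25 and Sec16b by -3.08, each lower in the last day after a rise.

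Against the step from day 0 to day 1, Gas6 differed by 6.82 (limma adjusted p = 1.74e-06), with 1.86 in the last step and -4.96 in the first. Slc40a1, the iron exporter ferroportin, differed by 5.54, the chemokine Ccl4 by 5.38, the complement gene C1qa by 5.25 and Htr2b by 4.83. Among them Gas6 and Htr2b kept the last-step call without each of the 4 arrays, Ccl4 lost it without 3 and Slc40a1 and C1qa without any of them. In the opposite direction Fndc7 differed by -4.75, Acy1, an aminoacylase, by -4.66, Diras2, a small GTPase, by -4.29, Gja1 by -4.16 and Bbs9, of the BBSome, by -4.14. Acy1 and Gja1 kept the last-step call without each of the 4 arrays, Fndc7 and Diras2 lost it without 3 of them and Bbs9 without any. The calls of Fndc7 and Ccl4 were also lost with the mean of their detected probes (limma adjusted p = 0.339 and 0.343). For Ccl4 the other detected probe gave -0.15 in the last step, not called.

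Of 737 detected probes without a gene symbol, which entered no comparison above, 138 were called between days 2 and 3, 61 higher and 77 lower.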

How the results depend on the processing

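Counts of genes were the results that moved most. The 917 higher calls became 581 with array medians scaled, and 284 to 927 without 1 of the 8 arrays. The 978 lower calls became 630 with no filter and 239 to 952 without 1 array. The 122 increases of at least 2-fold numbered 34 without background correction, 80 with an offset of 50, 56 from the series table and 55 among genes detected on all 8 arrays. The 35 decreases of that size numbered 3, 17, 11 and 23 in the same settings, 61 with array medians scaled and 35 to 56 without 1 array. The last step was above the step before for 1142 genes without background correction, against 695, and for 202 to 686 without 1 array. It was below for 290 to 807, against 826. Against the first step the counts moved by less than 1.5 times in every setting. Without 1 of the 8 arrays, the higher calls were 1 to 12 for cholesterol synthesis, 6 to 18 for lysosomal genes and 3 to 7 for coupling factors, and the lower calls 4 to 23 for ribosome biogenesis, 10 to 22 for S phase and 15 to 21 for mitosis. Smaller lists moved too. Over all tested genes the higher calls were 1266 without background correction and 1200 with robust variance estimates. They were 644 with no filter, 739 with only the 4 arrays and 905 with the mean of all probes. Vacuolar ATPase subunits had 5 higher calls, 8 without background correction or with robust variance estimates, 3 with array medians scaled or the replicate block and 2 with no filter or only the 4 arrays. Autophagy genes had 6, against 10 without background correction and 3 with no filter, and with array medians scaled the cyclin and CDK inhibitor list had 3 in place of 6, LXR targets 2 in place of 5, macrophage genes 1 in place of 4 and fusion genes 2 in place of 4. With the mean of all probes the BCL2 list had 3 in place of 6.

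The replicate number was also fitted as a block, although the labels do not say whether equal numbers pair the arrays. With it 774 genes were higher and 810 lower, and the last step was above the step before for 583 genes and below for 720. The block gave 21 lower mitosis genes, 20 of S phase and 23 of ribosome biogenesis, and 13 higher lysosomal genes, 10 of cholesterol synthesis and 6 coupling factors. Of 192 named genes that were called, 172 were called with the block, and 138 in every alternative that left out no single array.

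Signs turned for some genes. With array medians scaled, Cd81 gave -0.11, Nfatc1 -0.077, P2rx4 -0.031 and Rufy4 -0.055. With cyclic loess, Sirpa gave 0.012 and Snx10 0.0028. With the mean of all detected probes, P2rx4 gave -0.0071, P2rx7 -0.20, Plekhm1 0.015 and Src -0.046. Without 1 of the 8 arrays, the range was -0.24 to 0.032 for Cd47, -0.033 to 0.057 for Cd81, -0.11 to 0.94 for Lif, -0.024 to 0.047 for Nfatc1, -0.83 to 0.38 for Ocstamp, -0.18 to 0.47 for P2rx7, -0.21 to 0.012 for Sbno2, -0.11 to 0.086 for Sirpa and -0.013 to 0.26 for Tnfrsf11a. Among these genes Lif alone had been called. The cause of these shifts was not tested, except that fewer arrays enter the fits without an array. With 2 arrays a day, a reduced fit assumes that a lone array varies like the other days, and probes near background limit the 2-fold counts.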

Other observations

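Of 21 tested genes of iron and heme, 3 were called higher and 1 lower (14.3% and 4.76%, beside 10.6% and 11.3% of all tested genes). Tfrc, the transferrin receptor, read 13.98 and 13.92 at day 2 and 14.86 and 14.82 at day 3 and rose by 0.89 ± 0.10 (limma adjusted p = 0.00316), the only call of this list kept without each of the 4 arrays of days 2 and 3. The iron transporter genes Slc11a2 and Slc40a1 were called at 0.63 and 0.61, and both calls were lost without any of these arrays. Of 27 tested metallothionein and redox genes 3 were called higher and 1 lower (11.1% and 3.70%). Gstm1, a glutathione transferase, read 9.26 and 9.37 at day 2 and 10.14 and 10.32 at day 3 and rose by 0.91 ± 0.10 (limma adjusted p = 0.0033), and Mt3, a metallothionein, rose by 0.74 ± 0.09 (limma adjusted p = 0.00365).

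Among 15 tested integrins and matrix receptors 2 were called higher and 0 lower (13.3% higher, beside 10.6% of all). Without background correction or with cyclic loess 5 were higher, where 1266 and 1005 of all genes were. Sdc1, the heparan sulfate proteoglycan syndecan-1, read 8.06 and 7.89 at day 2 and 8.83 and 8.98 at day 3 and rose by 0.93 ± 0.11 (limma adjusted p = 0.00396), whereas Itgb1, the integrin β1 gene, was called at 0.63 ± 0.12 and kept its call only without replicate 1 of day 3. Of 30 tested genes of the actin ring and podosome 3 were called higher and 1 lower (10.0% and 3.33%), and 0 of these calls were kept without each of the 4 arrays. In the test against the step before, 10 of the 30 were lower in the last step and 0 higher, beside 9.53% and 8.02% of all genes. Of 10 tested metalloproteinases and inhibitors, Timp2, an inhibitor of metalloproteinases, read 11.30 and 11.24 at day 2 and 12.12 and 12.12 at day 3 and rose by 0.85 ± 0.12 (limma adjusted p = 0.00574). Among 13 genes of MHC class II presentation 1 was called higher and 1 lower, and among 18 of class I and the immunoproteasome 1 and 2, with 0 kept without each of the 4 arrays.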
